A study of Mus musculus with 12 samples.

Results

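The genes described here are 10 members of the major histocompatibility complex (MHC) class I antigen presentation pathway: H2-K1, H2-D1, H2-T23, B2m, Tap1, Tap2, Tapbp, Tapbpl, Erap1 and Nlrc5. The rule takes them by name as parts of the pathway, and they were located by symbol and Ensembl ID among the 38924 gene IDs that were counted. All 10 were found and all 10 passed the filter on low counts, which 13811 genes passed. The libraries were made from CD4+ T cells of C57BL/6 mice, 8 to 12 weeks old. Naive cells were sorted from spleens, stimulated through CD3 and CD28 over 2 days of expansion and left to rest for 1 day. They then spent 16 h with the solvent DMSO or with CMA (10-carboxymethyl-9-acridanone), a cell-permeable compound that binds and activates STING of the mouse. There were 4 groups of 3 libraries: WT cells with DMSO, WT cells with CMA, and cells labelled STING KO with DMSO or CMA. The methods describe the last genotype as STINGgt/gt (Goldenticket), a germline missense mutation of Tmem173 that leaves no functional STING protein in any cell, so the name STINGgt/gt is used from here on. The comparison of CMA with DMSO in WT cells asks what STING activation does in T cells, and the same comparison in STINGgt/gt cells asks what CMA does without STING. The libraries are described as biological replicates, and how the mice contributed to them is not given in the sources used here.

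Class I molecules show peptides from inside a cell to CD8 T cells and, as signals of self, to natural killer cells. Each molecule is a heavy chain (H2-K1 and H2-D1 are the classical ones of this strain, H2-T23 encodes the non-classical molecule Qa-1) paired with beta-2-microglobulin, the product of B2m. Peptides made by the proteasome are pumped into the endoplasmic reticulum by the transporter TAP, a dimer of the products of Tap1 and Tap2. There tapasin (Tapbp) holds the empty heavy chain next to TAP and favours the exchange of weakly bound peptides, TAPBPR (Tapbpl) edits the peptide away from the transporter, and the aminopeptidase ERAP1, called ERAAP in mice, trims peptides to fitting length. NLRC5 is a transactivator that acts at class I promoters together with the RFX, CREB/ATF and NF-Y factors. Most of the pathway is known to respond to interferon in many cell types.

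The total of reads counted on genes ran from 27414450 to 43784910 in the 12 libraries. Replicates of WT cells with DMSO differed more from each other than those of the other groups did (chi-square of a pair over its degrees of freedom 9.54 to 28.6, against 2.57 to 6.57 elsewhere). Levels below are normalized CPM, counts scaled to the library total after TMM correction. CD4+ T cell identity was checked against 7 T cell transcripts, which summed to between 2261 and 2663 CPM over the 12 libraries, with Cd4 alone at 434 to 548 CPM. Markers of other cells were lower but were not zero. Over the 12 libraries the 6 B cell markers summed to 114 to 378 CPM, the 8 myeloid and dendritic cell markers to 36.4 to 78.8 CPM, and the 6 markers of CD8 T and natural killer cells to 53.2 to 79.2 CPM. The macrophage marker Adgre1 had 3 or fewer counts in each library of both DMSO groups. Tmem173 mRNA was present in every library, at 183 to 190.3 CPM in WT and 168 to 181 CPM in STINGgt/gt cells with DMSO. With CMA it was at 296 to 316 CPM in WT and 169 to 184 CPM in STINGgt/gt cells. A missense mutation need not change its amount, so the presence of this transcript does not check the genotype labels. In these bulk libraries a change in the number of cells of a type and a change in RNA per cell cannot be told apart.

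Of the members, 7 have a promoter window in the RefSeq table of GRCm38.p6, the build of the files (GRCm38): H2-K1, H2-D1, H2-T23, B2m, Tap1, Tapbp and Erap1. Tap2, Tapbpl and Nlrc5 have none there. H2-K1 has 2 windows there, of which the first listed was used. The 250 bases before each RefSeq start were searched on both strands for 7 motifs tied to the regulators of class I genes. The RefSeq start is not the gene start of the files for every member: it lies 3579 bases inside the gene for Tapbp, 364 for H2-D1 and 154 for H2-T23, so the windows of these 3 genes lie wholly or in part within the gene as the files place it, and for the other 4 both starts are at most 19 bases apart. The windows of H2-K1, on chr17:34000348-34000497 (minus strand), and of B2m, on chr2:122147537-122147685 (plus strand), are shown in part because they carry the pathway's promoter boxes in compact form. Shown are bases 150 to 1 before the start for H2-K1 (150 bases) and bases 150 to 2 for B2m (149 bases). Capitals mark every stretch that matched a motif on either strand, and lower case marks the rest.
H2-K1: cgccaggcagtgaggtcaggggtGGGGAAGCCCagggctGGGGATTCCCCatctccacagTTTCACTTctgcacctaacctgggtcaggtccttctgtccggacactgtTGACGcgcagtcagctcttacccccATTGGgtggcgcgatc
B2m: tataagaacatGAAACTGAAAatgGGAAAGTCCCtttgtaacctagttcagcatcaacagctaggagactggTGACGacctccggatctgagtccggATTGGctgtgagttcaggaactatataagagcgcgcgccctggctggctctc
In both promoters an interferon response element and a kappa B site lie upstream of an X2 box (TGACG), which lies upstream of a Y box (CCAAT, here on the opposite strand as ATTGG). The order of the first 2 elements differs: in H2-K1 the kappa B site is the farther from the gene start, and in B2m the interferon response element is.

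The window of H2-D1 holds nearly the same boxes as that of H2-K1. A stretch of 30 bases with the kappa B site and the interferon response element, on chr17:34000429-34000458 for H2-K1 (minus strand) and on chr17:35262923-35262952 for H2-D1 (plus strand), is set side by side to show how alike the classical heavy chain genes are, with the matched bases in capitals. The H2-D1 stretch precedes the RefSeq start and lies inside the gene by the coordinates of the files.
H2-K1 stretch: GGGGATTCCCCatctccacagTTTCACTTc
H2-D1 stretch: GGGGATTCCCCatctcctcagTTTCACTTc
The stretches are identical at 29 of 30 positions.

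The core of the interferon response element (TTTCNNTT) was found in 4 of the 7 windows (H2-K1, H2-D1, H2-T23 and B2m), against 21.3% of all 32851 promoter windows of 250 bases in the table. A longer form (TTTCNNTTTC), which contains that core, was found in B2m and H2-T23 and in 2.98% of all windows. The kappa B site (GGGNNTNNCC) was found in H2-K1, H2-D1 and B2m, and in 15.9% of all windows. The X2 box (TGACG) was in H2-K1, H2-D1, B2m and Tap1, with 17.8% of all windows holding it, and the Y box (CCAAT) was in 6 of 7, with 33.8% of all windows. Neither the gamma-activated site (TTCNNNGAA, 7.02% of all windows) nor the X box letters AGCAAC (12.2%) were in any of the 7 windows. The window of Erap1 held none of the 7 motifs, and that of Tapbp held only the Y box. The motifs were chosen with these promoters in view, and the windows of H2-K1 and H2-D1 are much alike. The shares over all windows are therefore given beside these counts as a description and not as a test. A match of letters is a description of these windows and not a site of binding.

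**Figure D1:**
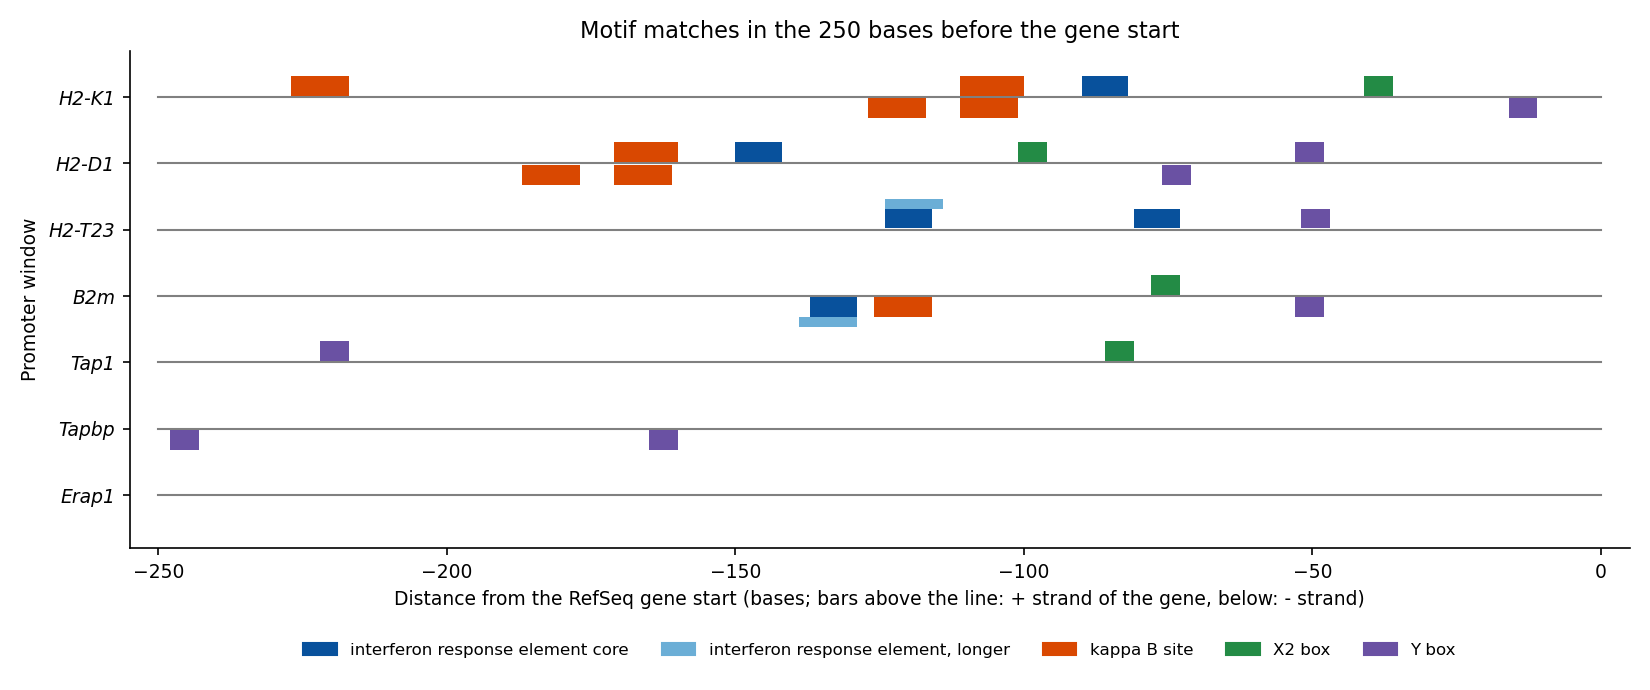
Positions of the motif matches in the 250 bases before the RefSeq gene start of the 7 class I pathway genes with a promoter window. The x axis is the distance from the start in bases, bars above a line are matches on the gene's strand and bars below it are on the other strand. H2-K1, H2-D1 and B2m carry an interferon response element, a kappa B site, an X2 box and a Y box, Tapbp carries only Y boxes, and Erap1 carries no match.

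Together the members took up between 0.566% and 0.615% of all gene reads in WT cells with DMSO and between 1.18% and 1.2% in WT cells with CMA. The share in STINGgt/gt cells was 0.582% to 0.613% with DMSO and 0.563% to 0.577% with CMA. Of the 10 members, 9 rose with CMA in WT cells and none fell. At the threshold, an adjusted p under 0.05, 33.0% of all genes tested were higher in this comparison and 37.4% were lower. The median log2 difference of the members was 1.06, and that of all genes tested was -0.04. The 10 members are ordered below by their role.

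H2-K1 (ENSMUSG00000061232, chr17:33996017-34000333, minus strand) is a classical heavy chain. Its levels were 1324, 1473.5 and 1329.6 CPM in WT cells with DMSO and 2855, 2845 and 2849 CPM with CMA. The STINGgt/gt values were 1311, 1339.9 and 1386 CPM with DMSO and 1318, 1275 and 1271 CPM with CMA. The 3 WT libraries with CMA stood apart from the 9 others, among which neighbouring groups overlapped. The log2 difference between CMA and DMSO was 1.05 in WT cells (standard error 0.045, adjusted p = 3.54e-12), a 2.07-fold rise, and -0.06 in STINGgt/gt cells (adjusted p = 0.603).

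H2-D1 (ENSMUSG00000073411, chr17:35262730-35267499, plus strand), the second classical heavy chain, had levels of 1121, 1245 and 1118.5 CPM in WT cells with DMSO and of 2223, 2264 and 2196 CPM with CMA. With the mutation its levels were 996, 999 and 1039 CPM with DMSO and 1012.5, 936 and 954 CPM with CMA. The WT libraries with CMA were again far above the rest, and the WT libraries with DMSO lay above every STINGgt/gt library. The rise with CMA in WT cells was 1.92-fold (log2 0.94, standard error 0.048, adjusted p = 3.06e-11), and the log2 difference in STINGgt/gt cells was -0.06 (adjusted p = 0.621).

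H2-T23 (ENSMUSG00000067212, chr17:36029773-36032855, minus strand), the Qa-1 heavy chain, is read by receptors on natural killer cells and some CD8 T cells. It stood at 375, 418 and 375 CPM in WT cells with DMSO and at 716, 709.95 and 710.4 CPM with CMA. The libraries of STINGgt/gt cells had 393, 403 and 400.15 CPM with DMSO and 426, 399 and 383 CPM with CMA. Only the WT libraries with CMA were separate, and all others overlapped. The rise in WT cells was 1.83-fold (log2 0.87, standard error 0.049, adjusted p = 1.18e-10), and the log2 difference in STINGgt/gt cells was 0.01 (adjusted p = 0.938). Heavy chain genes share sequence, and reads that aligned to several places (27.8% to 30.3% of all tallied entries) were not counted on any gene. Of the 50-base windows along a transcript, 8.79% in H2-K1, 14.3% in H2-D1 and 28.8% in H2-T23 also occur in a transcript of another gene, so reads of that length from these windows could not be placed on a single gene. With windows of 100 bases the shares were 0%, 4.64% and 7.28%. The share of entries aligned to several places also moved with CMA in WT cells, from 29.6% to 30.3% with DMSO to 27.8% to 27.9% with CMA, and it was 28.1% to 29.04% in STINGgt/gt cells with DMSO and 28.1% to 28.3% with CMA. Entries on no annotated feature were 4.86% to 5.47% in WT cells with DMSO and 6.79% to 7.16% with CMA, against 5.98% to 6.54% and 6.02% to 6.33% in STINGgt/gt cells. The part of these shares in the members' differences was not tested.

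B2m (ENSMUSG00000060802, chr2:122147686-122153083, plus strand) encodes the light chain that every class I heavy chain needs to reach the surface. Its levels were 1606, 1685 and 1706.5 CPM in WT cells with DMSO and 2998, 3067 and 3066 CPM with CMA. Cells of STINGgt/gt mice had 1532, 1443 and 1516 CPM with DMSO and 1294, 1340.1 and 1382 CPM with CMA. No pair of neighbouring groups overlapped for B2m, in the order WT with CMA, WT with DMSO, STINGgt/gt with DMSO and STINGgt/gt with CMA. The rise with CMA in WT cells was 1.83-fold (log2 0.87, standard error 0.042, adjusted p = 1.5e-11). In STINGgt/gt cells the log2 difference was -0.16 (standard error 0.041) with an unadjusted p of 0.00133 and an adjusted p of 0.0702, so it missed the threshold. It passed with DESeq2 (adjusted p = 0.00668), with only the groups compared in the fit (0.027), with a replicate block (0.0359), and without replicate 2 (0.0317) or replicate 3 (0.0204) of WT with DMSO. The heavy chain members, summed per kilobase of exon and divided by B2m per kilobase, gave a ratio of 0.512 to 0.576 in WT cells with DMSO and of 0.580 to 0.597 with CMA. The ratio in STINGgt/gt cells was 0.544 to 0.586 with DMSO and 0.582 to 0.657 with CMA.

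Tap1 (ENSMUSG00000037321, chr17:34187553-34197225, plus strand) encodes a subunit of the peptide transporter. Its levels were 458, 469.7 and 429 CPM in WT cells with DMSO and 931, 962 and 949.7 CPM with CMA. STINGgt/gt cells had 509, 509 and 556 CPM with DMSO and 533, 529.8 and 534 CPM with CMA. The WT libraries with DMSO were the lowest of all 12 and those with CMA the highest. The rise in WT cells was 2.09-fold (log2 1.07, standard error 0.046, adjusted p = 3.42e-12), and the log2 difference in STINGgt/gt cells was 0.02 (adjusted p = 0.892).

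Tap2 (ENSMUSG00000024339, chr17:34203527-34216321, plus strand), the partner subunit, showed the same order of groups. It was at 179.7, 190.1 and 176 CPM in WT cells with DMSO and at 463, 471 and 468 CPM with CMA. Levels in STINGgt/gt cells were 213, 226 and 231 CPM with DMSO and 241, 226 and 223 CPM with CMA. The rise in WT cells was 2.57-fold (log2 1.36, standard error 0.047, adjusted p = 2.08e-13), and the log2 difference in STINGgt/gt cells was 0.04 (adjusted p = 0.753). The exons of both genes overlap those of genes on the opposite strand, Tap1 with Psmb9 over 212 bases and Tap2 with Gm15821 over 533 bases. The strand setting of the counting is not given in the sources used here.

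Tapbp (ENSMUSG00000024308, chr17:33915899-33929288, plus strand), which encodes tapasin, changed most of the 10. Its levels were 191, 208 and 190.3 CPM in WT cells with DMSO and 966, 1013 and 941 CPM with CMA. STINGgt/gt cells held 239, 223 and 247 CPM with DMSO and 240.4, 228 and 243 CPM with CMA. The rise in WT cells was 4.96-fold (log2 2.31, standard error 0.053, adjusted p = 1.54e-15), which placed Tapbp at rank 355 from the top among the 13811 genes by log2 difference. The log2 difference in STINGgt/gt cells was 0.0047 (standard error 0.051, adjusted p = 0.983). Its exons share 149 bases with Zbtb22 on the same strand and 904 bases with the antisense gene Gm19412.

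Tapbpl (ENSMUSG00000038213, chr6:125223933-125231860, minus strand), which encodes the tapasin relative TAPBPR, had 120.3, 119 and 114 CPM in WT cells with DMSO and 247, 245 and 243 CPM with CMA. Its STINGgt/gt libraries had 134, 139.9 and 137 CPM with DMSO and 145, 140.4 and 141 CPM with CMA. The groups of this gene did not overlap either. The rise in WT cells was 2.09-fold (log2 1.06, standard error 0.039, adjusted p = 5.61e-13). In STINGgt/gt cells the libraries with CMA lay just above those with DMSO, and the log2 difference of 0.05 missed the threshold (standard error 0.039, adjusted p = 0.625). On the log2 scale the rise of tapasin was 2.31 and that of its relative 1.06.

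Erap1 (ENSMUSG00000021583, chr13:74639872-74691875, plus strand), the trimming peptidase, was the member that did not pass the threshold in WT cells. Its levels were 122, 109.7 and 132 CPM in WT cells with DMSO and 134, 129.6 and 129 CPM with CMA. For STINGgt/gt cells the levels were 157, 153 and 155 CPM with DMSO and 159, 170.5 and 167 CPM with CMA. The WT groups overlapped, and every STINGgt/gt library was above every WT library. The log2 difference between CMA and DMSO was 0.11 in WT cells (standard error 0.056, adjusted p = 0.0978) and 0.09 in STINGgt/gt cells (standard error 0.055, adjusted p = 0.507). In WT cells it passed with DESeq2 (adjusted p = 0.043), with limma on the log2 table of the authors (0.02), with at least 10 counts required in every library (0.0229) and without replicate 3 of WT with DMSO (0.00278, log2 0.19), which held its highest value in that group. Without replicate 2 of WT with DMSO, which held its lowest value there, the log2 difference was 0.03 (adjusted p = 0.541). The exons of Erap1 share 834 bases with those of Cast on the opposite strand.

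Nlrc5 (ENSMUSG00000074151, chr8:94472763-94527272, plus strand), the transactivator, had 227, 215 and 195 CPM in WT cells with DMSO and 529.5, 525 and 535 CPM with CMA. The STINGgt/gt levels were 317, 329 and 351 CPM with DMSO and 331, 329 and 322 CPM with CMA. The STINGgt/gt libraries lay between both WT groups with no overlap with either. The rise in WT cells was 2.5-fold (log2 1.32, standard error 0.053, adjusted p = 1.58e-12), and the log2 difference in STINGgt/gt cells was -0.02 (adjusted p = 0.906).

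**Figure D2:**
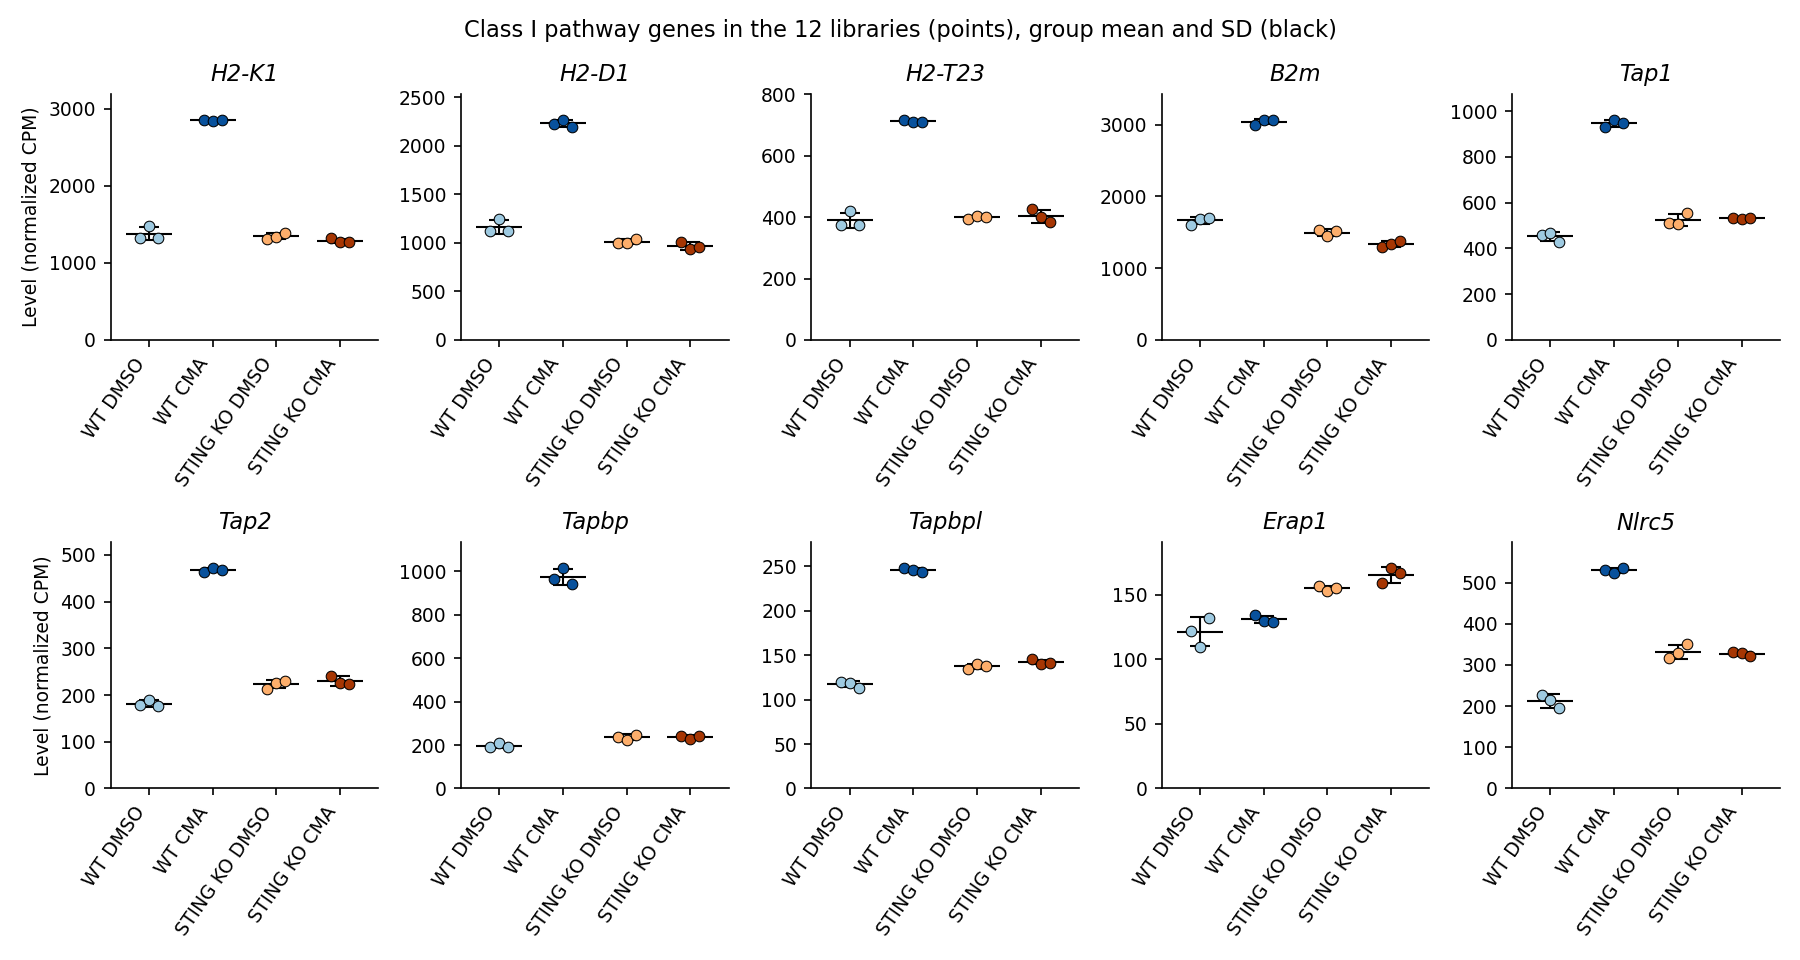
Levels of the 10 class I pathway genes in normalized CPM (y axis, from 0, with a scale of its own for each gene) in the 4 groups (x axis). Points are the 3 libraries of a group and the black line and bars are their mean and SD. For all genes except Erap1 the WT libraries with CMA are the highest, and for Nlrc5 the STINGgt/gt libraries lie between both WT groups.

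Compared between genes per kilobase of exon, B2m was the highest member in all 4 groups, with a mean of 1937 CPM per kilobase in WT cells with DMSO and 3539 with CMA, followed by H2-K1 (468 and 970.0) and H2-D1 (450.4 and 864). The ranges of H2-K1 and H2-D1 overlapped in WT cells with DMSO and in no other group. Tapbp was the sixth in both DMSO groups, at 54.2 CPM per kilobase in WT cells, and the fourth in WT cells with CMA, at 268, above H2-T23 at 246 and Tap1 at 173. Tap2 and Tapbpl could not be ordered in 3 of the groups, and Tapbp and Tap2 overlapped in STINGgt/gt cells with CMA. Nlrc5 was the ninth and Erap1 the lowest in every group, at 25.0 and 16.7 CPM per kilobase in WT cells with DMSO. These values use the length of all annotated exons of a gene, so they are lower for genes whose long exons are little used.

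In STINGgt/gt cells none of the 10 members passed the threshold with CMA in edgeR's test, in either direction. Across all genes, 0.398% were higher and 0.920% lower, which is 55 and 127 genes. These counts moved with the libraries, from 14 higher without replicate 2 of STINGgt/gt with DMSO to 180 higher without replicate 2 of WT with DMSO, and from 41 lower without replicate 3 of STINGgt/gt with CMA to 289 lower without replicate 3 of WT with DMSO. By unadjusted p under 0.05 only B2m stood out, on the lower side. DESeq2 called B2m lower and limma-voom called no member. The median log2 difference of the members was 0.01, against 0.00 (0.0013) over all genes.

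The difference between the CMA effects, WT minus STINGgt/gt, was tested as an interaction. It passed the threshold above 0 for 9 of 10 members and below 0 for none, where 27.2% of all genes passed above 0 and 31.6% below. Tapbp had the largest value of the members, a log2 difference of 2.30 (standard error 0.072, adjusted p = 3.54e-13), followed by Nlrc5 with 1.34 (0.074, adjusted p = 2.45e-10) and Tap2 with 1.32 (0.065, adjusted p = 6.44e-11). The other 6 that passed lay between 0.86 for H2-T23 (0.069, adjusted p = 2.38e-08) and 1.11 for H2-K1 (0.063, adjusted p = 3.38e-10). For Erap1 the difference was 0.01 (standard error 0.079, adjusted p = 0.898).

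Markers of cell types were compared with CMA and DMSO in WT cells as well, where 33.0% of all genes were higher and 37.4% lower. Of the 7 T cell markers 1 was higher and 4 were lower, with a median log2 difference of -0.17, and their summed level had a median of 2492 CPM (2457 to 2551) with DMSO and of 2271 CPM (2261 to 2331) with CMA. In STINGgt/gt cells none of the 7 passed in edgeR's test or with DESeq2 or limma-voom, 1 was higher by unadjusted p, and the medians were 2596 and 2639 CPM. The difference of the CMA effects, WT minus STINGgt/gt, passed the threshold above 0 for 1 of the 7 and below 0 for 5 (27.2% and 31.6% over all genes), and DESeq2 called 1 above and 3 below. Of the 6 B cell markers 5 were higher with CMA in WT cells, and their summed level had a median of 259 CPM (253 to 266) with DMSO and of 355 CPM (349.95 to 378) with CMA. None passed the threshold in STINGgt/gt cells, where the medians were 116 and 115 CPM. By unadjusted p 1 of the 6 was lower there, and DESeq2 and limma-voom called none. Of 7 myeloid and dendritic cell markers that could be tested, 2 were higher and 3 lower, shares near those of all genes. Higher were Cst3 (mean 38.6 CPM with DMSO and 55.7 CPM with CMA) and Flt3 (9.69 and 16.6 CPM). Lower were Itgam (log2 -1.71), Itgax (log2 -1.65) and Lyz2 (log2 -1.50). The summed level of the 8 listed, most of it from Cst3, was 55.1 to 58.7 CPM with DMSO and 72.1 to 78.8 CPM with CMA in WT cells, with no overlap. In STINGgt/gt cells that sum had medians of 38.1 and 38.3 CPM. Of 6 CD8 T and natural killer cell markers 1 was higher and 4 were lower, with summed levels of 74.7 to 79.2 CPM with DMSO and 65.8 to 69.8 CPM with CMA in WT cells. In STINGgt/gt cells their medians were 53.4 and 61.1 CPM, and the ranges overlapped (53.2 to 61.2 CPM with DMSO, 56.8 to 64.0 CPM with CMA). B cells carry class I molecules as T cells do, and the part of any of these cell types in the members' rise was not tested.

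WT and STINGgt/gt cells also differed with DMSO alone. Nlrc5 was lower in WT cells, with a log2 difference of -0.65 (standard error 0.053, adjusted p = 5.86e-08), which is a level 1.56-fold higher in STINGgt/gt cells. Erap1 (-0.35, adjusted p = 9.55e-05), Tap2 (-0.30, adjusted p = 7.43e-05), Tapbp (-0.27, adjusted p = 0.000479), Tapbpl (-0.22, adjusted p = 0.000256) and Tap1 (-0.21, adjusted p = 0.00118) were lower in WT cells as well. H2-D1 (0.20, adjusted p = 0.00282) and B2m (0.15, adjusted p = 0.00675) were higher. H2-K1 (0.03, adjusted p = 0.603) and H2-T23 (-0.03, adjusted p = 0.613) did not pass, and that of H2-K1 became -0.03 without replicate 2 of WT with DMSO. So 6 members were lower and 2 higher in WT cells, against 19.8% lower and 22.9% higher over all genes. The higher call of B2m was lost without replicate 2 of STINGgt/gt with DMSO (log2 0.12, adjusted p = 0.0596). With a minimum of a 2-fold difference no member was called in this comparison. This comparison shares its WT and STINGgt/gt control libraries with the comparisons of CMA and DMSO, and the groups come from different mice.

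The B cell markers were all higher in WT than in STINGgt/gt cells with DMSO, 6 of 6 against 22.9% of all genes, with a median log2 difference of 1.05, and the summed medians were 259 and 116 CPM. All 7 testable myeloid and dendritic cell markers and 4 of 6 CD8 T and natural killer cell markers were higher in WT cells too, and 1 of the 6, Eomes, was lower. Of the 7 T cell markers none was higher and 2 were lower. The part of these cells in the genotype differences of the members was not tested.

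**Figure D3:**
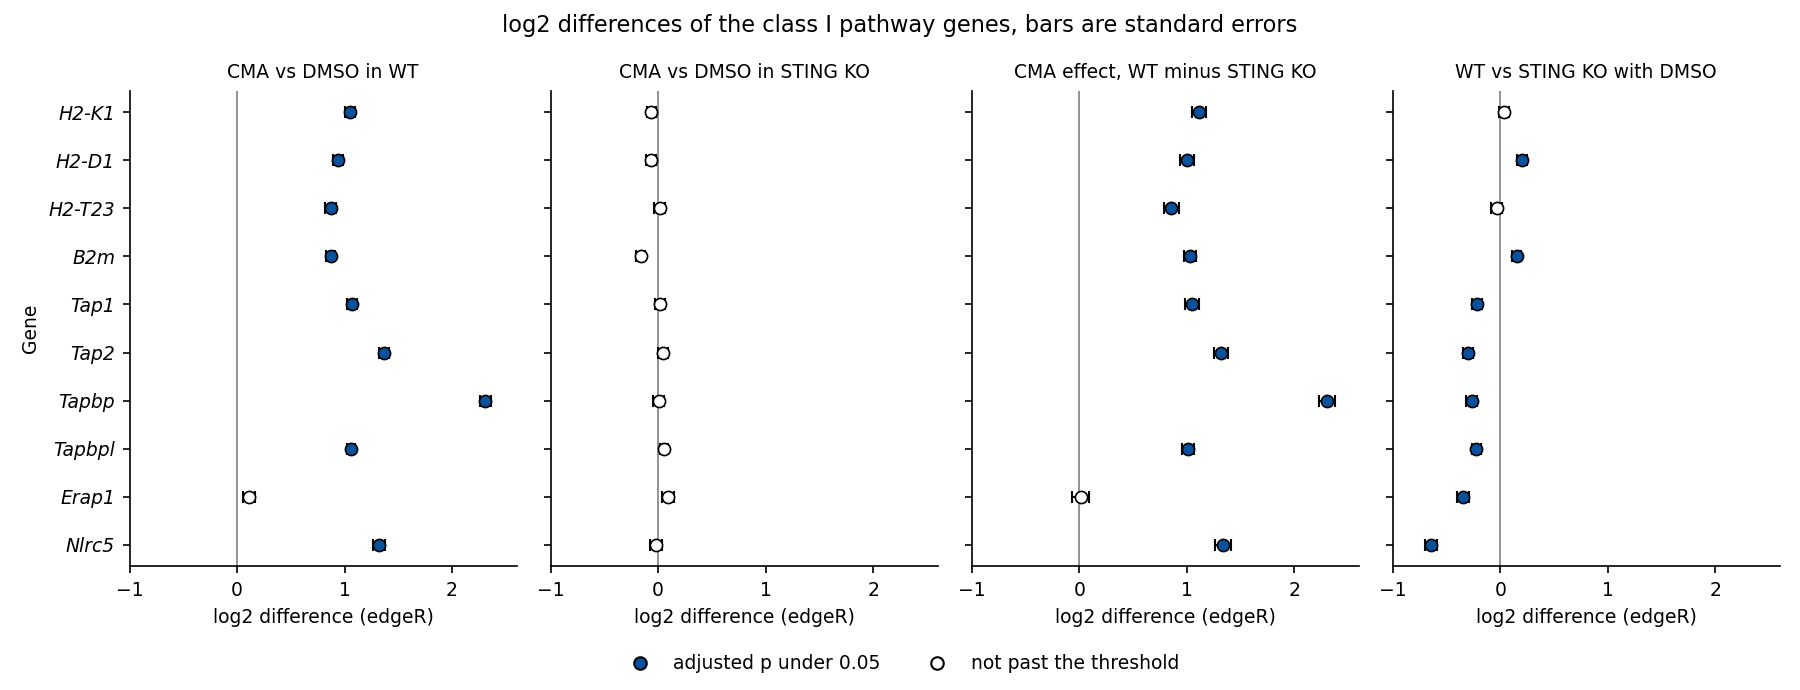
log2 differences (x axis, edgeR) of the 10 class I pathway genes (y axis) in 4 comparisons, with bars for the standard error and filled points for an adjusted p under 0.05. In WT cells with CMA 9 genes are filled to the right of 0 and Erap1, at 0.11, is not filled. None is filled in STINGgt/gt cells with CMA. With DMSO 6 are filled to the left and 2 to the right.

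Other genes of the pathway were examined from lists, whose counts with CMA in WT cells stand against the 33.0% of all genes that were higher and the 37.4% that were lower. Of 23 other heavy chain genes, 20 had an ID in the files and 12 could be tested, of which 10 rose with CMA in WT cells and none fell, with a median log2 difference of 0.96. H2-Q7, which with its neighbours encodes Qa-2 molecules, had a mean of 381 CPM (SD 62.9, n = 3) with DMSO and 871 CPM (SD 11.5) with CMA. H2-Q4 went from 135 to 323 CPM and H2-T22 from 265 to 374 CPM, with log2 differences of 1.26 (adjusted p = 2.97e-09) and 0.50 (adjusted p = 2.24e-08). None of the 12 was called in STINGgt/gt cells. By unadjusted p 3 were lower, DESeq2 called 2 lower and limma-voom called none. These genes share sequence with the classical heavy chains, so their counts are uncertain in the same way.

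Class I-like molecules had calls in both directions, in shares near those of all genes (33.0% higher and 37.4% lower). Of 4 that could be tested of 7, 1 was higher in WT cells with CMA, Procr (log2 0.80, adjusted p = 2.03e-05), and 2 were lower, Mr1 and the iron regulator Hfe (log2 -1.67, adjusted p = 0.000308, at most 24 counts in a WT library with DMSO). Mr1, which presents vitamin B metabolites to mucosal-associated invariant T cells, fell from a mean of 15.1 CPM (SD 0.842) to 7.30 CPM (SD 0.343), a log2 difference of -1.04 (adjusted p = 2.42e-09). Cd1d1, which presents lipids, had 1.71 CPM (SD 0.0956) with DMSO and 1.5 CPM (SD 0.14) with CMA and did not pass (adjusted p = 0.246).

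The general chaperones of the loading complex changed less than tapasin did on the log2 scale. Calr, which encodes calreticulin, had a log2 difference of 0.27 (adjusted p = 0.000241) and Pdia3, the disulphide isomerase bound to tapasin, one of 0.43 (adjusted p = 1.9e-06). Canx, which encodes calnexin, did not pass (0.01, adjusted p = 0.822). Of the 4 genes 3 were higher in WT cells with CMA, the third being Uggt1 (0.16, adjusted p = 0.0181), and none was called in STINGgt/gt cells, by unadjusted p or by the other tools either.

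Of 7 peptidases tested that can act on class I peptides, 1 was higher and 4 were lower with CMA in WT cells, where calls in both directions were common over all genes (33.0% higher and 37.4% lower). The insulin-regulated aminopeptidase Lnpep rose from 182 to 388 CPM (log2 1.09, adjusted p = 4.32e-05), with a wide range of 109 to 239 CPM among the WT libraries with DMSO. Nrd1 fell by 0.16 on the log2 scale (adjusted p = 0.00206), and Thop1 (-0.995, adjusted p = 3.66e-10), Tpp2 (-0.47, adjusted p = 3.48e-06) and Blmh (-0.16, adjusted p = 0.0115) were lower too, while Npepps had a log2 difference of -0.07 (adjusted p = 0.184). None was called in STINGgt/gt cells, and 1 was higher by unadjusted p.

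All 5 immunoproteasome genes rose with CMA in WT cells, with a median log2 difference of 0.83. Psmb9, a catalytic subunit whose gene lies beside Tap1, had a mean of 154 CPM (SD 14.9) with DMSO and 329.9 CPM (SD 6.28) with CMA, a log2 difference of 1.10 (adjusted p = 5.31e-11). Psmb8 had 302 and 447 CPM (log2 0.56, adjusted p = 4.89e-09). The activator subunits Psme1 and Psme2 had log2 differences of 0.65 (adjusted p = 7.94e-10) and 0.83 (adjusted p = 7.96e-11). None was called in STINGgt/gt cells with CMA, by unadjusted p or by the other tools either. With DMSO all 5 were lower in WT than in STINGgt/gt cells, against 19.8% lower and 22.9% higher over all genes, with a median log2 difference of -0.18.

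Of 13 transcription factors that act on class I or interferon-responsive promoters, 9 were higher and 3 lower with CMA in WT cells, against 33.0% higher and 37.4% lower over all genes. The 3 that fell were Nfyb, a subunit of NF-Y (156 to 68.5 CPM, log2 -1.18, adjusted p = 1.53e-12), Atf1 (log2 -0.29, adjusted p = 8.22e-05) and Rfxap, a subunit of RFX (log2 -0.28, adjusted p = 0.00056). Stat2 rose from 162 to 639 CPM (log2 1.98, adjusted p = 3.77e-14) and Irf1 from 232 to 454 CPM (log2 0.97, adjusted p = 1.2e-11). Irf1, an activator of class I genes, was also called in STINGgt/gt cells, with 317 CPM (SD 5.86) with DMSO and 387 CPM (SD 6.26) with CMA (log2 0.29, adjusted p = 0.00383), while the members had no call there in that test. By unadjusted p 2 of the 13 were higher and 1 was lower in STINGgt/gt cells, and DESeq2 and limma-voom each called 2 higher. Irf2 just missed the threshold there (log2 0.18, adjusted p = 0.0523 in edgeR's test). Irf1 was lower in WT than in STINGgt/gt cells with DMSO (log2 -0.45, adjusted p = 7.14e-07). Stat2 had a log2 difference of -0.02 there (adjusted p = 0.819).

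**Figure D4:**
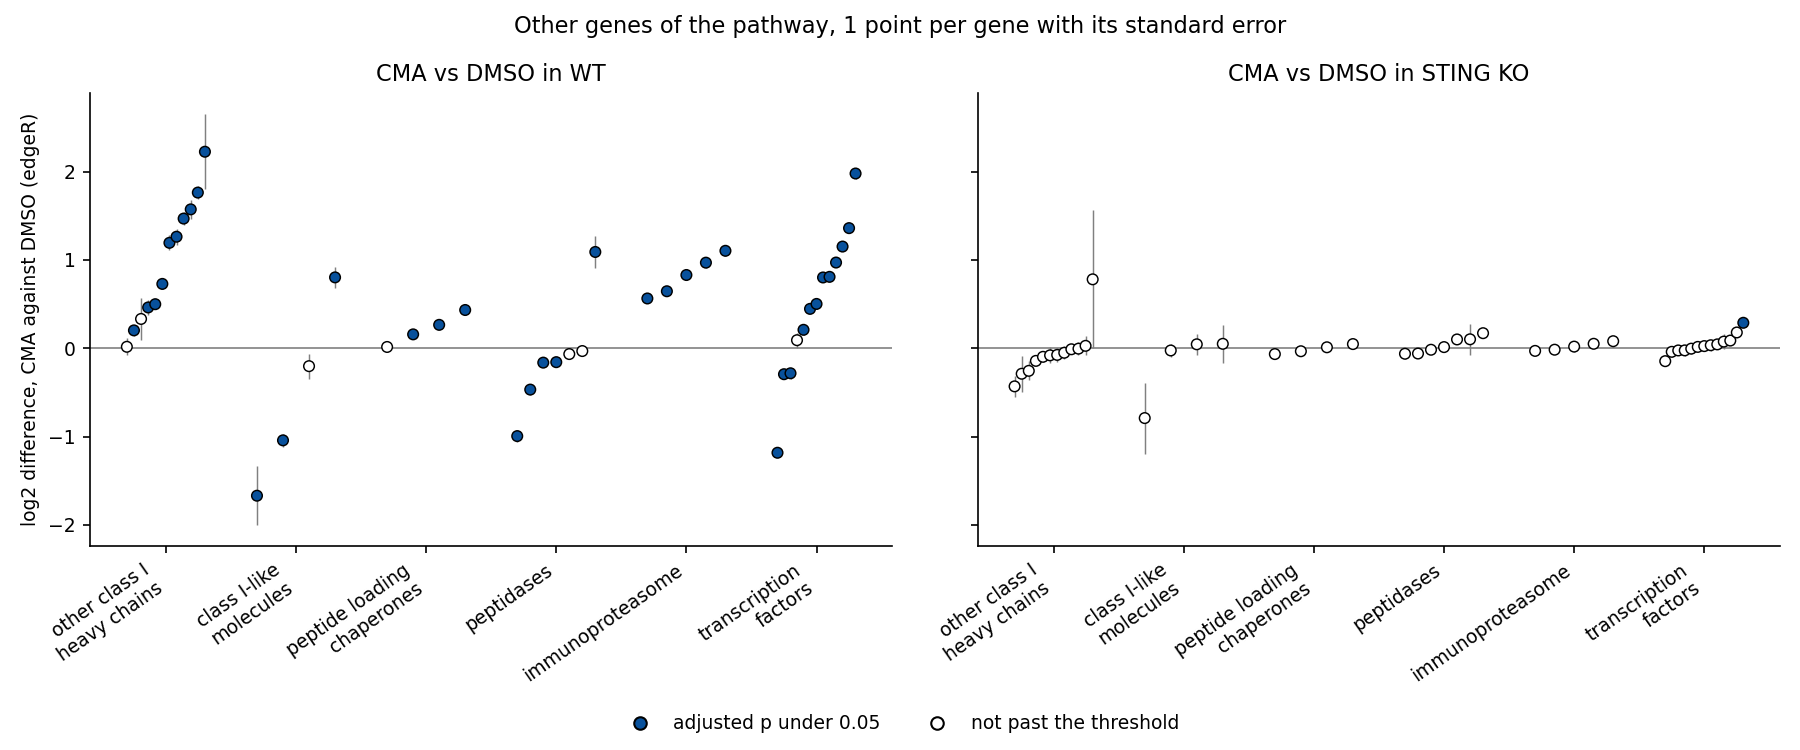
log2 differences between CMA and DMSO (y axis, edgeR) in WT (left) and STINGgt/gt cells (right) for the tested genes of 6 lists around the class I pathway (x axis), 1 point per gene with its standard error and filled where the adjusted p was under 0.05. In WT cells the heavy chains and the immunoproteasome lie mostly above 0 and the peptidases on both sides, and in STINGgt/gt cells the only filled point in edgeR's test is Irf1.

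Among the members, the levels of Tap2 and Tapbpl followed each other most closely over the 12 libraries (Pearson r of log2 CPM 0.998), then Tap1 and Tap2 (0.996). Nlrc5 had a correlation of 0.94 with Tap2 and Tapbpl, 0.93 with Tap1, 0.88 with Tapbp and 0.68 with B2m. Erap1 had values between -0.54 and 0.16 with the other 9. Outside the members, the genes whose levels were most like those of Nlrc5 were Gbp10 (0.993), Pla2g4f, Lad1, Ikbke and Kcnk10 (0.990). The mean of the 10 members, each standardised, was most like Adar (0.998), then Brpf3, Tnfsf4, Phf11c and Phf11b (0.997). The 12 points share 4 groups, so these values mostly describe the same differences between groups and are given as a description.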

How the data were processed

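The deposited counts are whole reads on each of 38924 Ensembl gene IDs, tallied by the authors with HTSeq 0.6.1 and not normalized. The submitters' processing notes also name cutadapt 1.3, STAR 2.4.0f1, RSEM 1.2.16 and the build GRCm38, and libraries were made with a kit that keeps the strand. They deposited a log2 expression table of 11921 genes as well, which the authors had normalized, and it served for symbols, positions and an alternative fit. CMA was used at 125 μg/ml. Tally lines that name no gene were left out of library sizes and tests. No per-sample column was left unmatched to a library.

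Main test: edgeR 4.0.16 (glmQLFit and glmQLFTest, R 4.3.3) with TMM scaling, filterByExpr (13811 genes), all 4 groups fitted together, no block, and Benjamini-Hochberg adjustment over all genes tested (threshold 0.05). All adjusted p values not credited to another tool come from it, and standard errors are on the log2 scale. Alternatives were library-size scaling, DESeq2 1.42.0, limma-voom (limma 3.58.1), limma on the authors' log2 values, a fit of unfiltered genes, a filter of at least 10 counts per library throughout, fits of only the compared groups, a replicate block, a threshold of 0.01, a 2-fold minimum, and leaving out each library. On simulated data with 200 genes changed among 13811, in WT cells with CMA only, edgeR recovered 49 of 67 genes changed 1.5-fold, 57 of 67 changed 2-fold and 63 of 66 changed 4-fold in WT cells, and called 11 unchanged genes. The simulated STINGgt/gt comparison held no change, and 1 gene was called in it. Each simulated gene had the same spread in all 4 groups. In the data 33.0% of genes were called higher and 37.4% lower with CMA in WT cells. The simulation therefore does not check scaling or false calls in that setting.

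The members and lists were chosen with earlier results of these data known, and the promoter motifs with the promoters in view. Named from each list were at most 3 genes with the highest mean CPM, plus Psmb8 and Psmb9. Adgre1, Lyz2, Itgax, Hfe, Uggt1, Thop1, Tpp2, Blmh, Nfyb, Atf1, Rfxap and Irf2 were named after their values were seen. Some genes that this rule covers are left unreported. Correlations used log2 CPM (prior count 2). Promoters are from RefSeq and exon lengths and overlaps from GENCODE M21, both GRCm38. Replicates of a group differed by more than sampling noise (chi-square per degree of freedom 9.54 to 28.6 in WT with DMSO and 2.57 to 6.57 in the other groups).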

Additional observations from a re-analysis of the deposited data

Results flagged for a closer look

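A different CMA effect in WT and in STINGgt/gt cells, by the interaction test of edgeR, was found for 9 of the 10 class I pathway genes, all with the larger effect in WT cells, where 27.2% of all genes passed above 0 and 31.6% below. The log2 difference of the effects, WT minus STINGgt/gt, was 1.11 for H2-K1, 1.00 for H2-D1, 0.86 for H2-T23, 1.03 for B2m, 1.05 for Tap1, 1.32 for Tap2, 2.30 for Tapbp, 1.01 for Tapbpl and 1.34 for Nlrc5. Each stayed past the threshold under every alternative run, except that H2-T23 fell below a 2-fold minimum. Erap1, at 0.01 (adjusted p = 0.898), was the member that did not pass.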

How the results depend on the processing

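Of 860 values of a member under an alternative, 826 kept their direction and side of the threshold. The threshold of 0.01 and the 2-fold minimum reuse the values of the main fit, so no direction could change under them. The 9 members called higher in WT cells with CMA stayed past the threshold under the alternatives run, except that B2m, H2-D1 and H2-T23 fell short of a 2-fold minimum. In STINGgt/gt cells the number of members lower was 1 (B2m) with DESeq2, with only the groups compared and with the replicate block, and ranged from 0 to 1 when single libraries were left out. With DMSO the number of members higher in WT cells ranged from 1 to 2 when a library was left out, and a 2-fold minimum left 0 higher and 0 lower. Values near 0 changed sign. The Erap1 difference of the CMA effects was -0.011 with library-size scaling and ranged from -0.060 to 0.093 without single libraries. In STINGgt/gt cells the ranges over libraries left out were -0.031 to 0.047 for H2-T23, -0.0031 to 0.063 for Tap1, -0.037 to 0.037 for Tapbp and -0.055 to 0.019 for Nlrc5, and with DMSO -0.026 to 0.052 for H2-K1 between genotypes. The cause was not tested. A shared replicate number was not read as a pairing, because the correlation of same-numbered deviations was 0.0019 to 0.132 in WT and 0.059 to 0.063 in STINGgt/gt cells and did not pass 0.1 for every number. Each library correlated best with its own number except replicate 1 of both WT groups. Over all genes the replicate block took the calls in STINGgt/gt cells to 130 higher (55 without it) and 233 lower (127 without it). The replicate block changed no other call of a member. The deposited sample names share a leading digit within every same-numbered pair of CMA and DMSO libraries except replicate 2 of STINGgt/gt, and the labels do not say what that digit marks. The same calls over all genes came to 268 and 388 when only the groups compared were fitted, to 176 and 257 when no gene was filtered out and to 123 and 200 by DESeq2, and ranged from 14 to 180 higher and from 41 to 289 lower when a library was left out. The lowest count of a member in any library was 3271.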
